A study of Mus musculus with 29 samples.

Results

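Receptors for the constant (Fc) part of immunoglobulin G were described through 5 genes, Fcgr1, Fcgr2b, Fcgr3, Fcgr4 and Fcer1g, in single-cell RNA profiles of mouse brain and blood after an experimental stroke. The genes were taken by name as the Fc gamma receptor family with its shared signalling chain, and not by a rule on their values. Earlier results of these data were known when they were chosen. They are 5 of the 15721 genes that every deposited count table holds, and all 5 were found in each of the 29 libraries. All mice were C57BL/6J. For stroke, the middle cerebral artery was occluded for a time and then reopened, and sham mice had surgery without occlusion. Young mice were males of 8 to 10 weeks. Their brains gave 4 libraries after sham surgery at day 2, 4 after stroke at day 2 and 4 after stroke at day 14, and their blood gave 4, 4 and 3 libraries of the same groups. Brains of aged mice of 17 to 20 months gave 2 libraries after sham surgery at day 2 (1 male, 1 female), 3 after stroke at day 2 (1 male, 2 female) and 1 after stroke at day 14 (female). Each brain library was a pool of 4 to 5 hemispheres, sorted for microglia, for CD45-high leukocytes and for endothelium, so neurons and other glia were outside the sort. Each blood library was leukocytes pooled from 2 mice. No sham brain or blood from day 14 was among the samples, so a difference between stroke day 14 and sham is also a difference in time since surgery.

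Fc gamma receptors let phagocytes and lymphocytes read antibody that has bound a target. Fcgr1 (high affinity), Fcgr3 (low affinity) and Fcgr4 (intermediate affinity) encode the antibody-binding chains of the activating receptors. These depend on the common gamma chain encoded by Fcer1g, whose ITAM motif is phosphorylated on binding and recruits the kinase Syk. Fcgr2b encodes the inhibitory receptor, a single chain whose ITIM motif recruits the phosphatase SHIP-1, the product of Inpp5d. Microglia and other macrophages are known to carry both kinds, neutrophils mainly Fcgr3 and Fcgr4, natural killer cells Fcgr3, and B cells the inhibitory receptor alone. Fcgr2b, Fcgr4, Fcgr3 and Fcer1g lie in a cluster on chromosome 1 (Fcgr2b at 170960558 to 170976071, Fcgr4 at 171018926 to 171029761, Fcgr3 at 171051169 to 171065915 and Fcer1g at 171229572 to 171234349), and Fcgr1 lies apart on chromosome 3 at 96282909 to 96293969 (build GRCm38). Promoter windows of 280 bases, from 250 before to 30 after the annotated start, were taken from RefSeq (GRCm38.p6) for the 3 activating receptors. They are shown because Fcgr4 rose most after stroke in microglia and Fcgr1 in monocyte-derived cells, while Fcgr3 was called in neither. Each is written 5′ to 3′ on the gene's own strand. Capitals mark the core of the motif of PU.1, a transcription factor of myeloid cells (GAGGAAG, here always on the opposite strand), and in Fcgr4 also an interferon-response-like element (GAAANNGAA).
Fcgr4 promoter (chr1:171018676-171018955, plus strand): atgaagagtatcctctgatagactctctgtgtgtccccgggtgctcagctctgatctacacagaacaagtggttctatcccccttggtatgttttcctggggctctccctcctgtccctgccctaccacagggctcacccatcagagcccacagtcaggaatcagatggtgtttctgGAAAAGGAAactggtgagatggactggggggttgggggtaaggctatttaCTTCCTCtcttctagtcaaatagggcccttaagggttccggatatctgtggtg
Fcgr1 promoter (chr3:96293940-96294219, minus strand): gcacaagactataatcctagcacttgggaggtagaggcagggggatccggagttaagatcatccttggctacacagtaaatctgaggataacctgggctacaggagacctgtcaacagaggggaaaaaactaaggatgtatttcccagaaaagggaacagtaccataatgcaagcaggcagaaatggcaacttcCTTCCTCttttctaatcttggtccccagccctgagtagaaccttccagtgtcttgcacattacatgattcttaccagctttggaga
Fcgr3 promoter (chr1:171059374-171059653, minus strand): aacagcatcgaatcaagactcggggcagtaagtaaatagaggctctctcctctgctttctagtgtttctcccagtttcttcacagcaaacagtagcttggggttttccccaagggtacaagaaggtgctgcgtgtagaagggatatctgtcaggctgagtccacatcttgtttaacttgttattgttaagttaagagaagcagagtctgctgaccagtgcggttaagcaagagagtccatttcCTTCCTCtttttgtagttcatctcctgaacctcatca

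Both strands were searched for 4 motifs, and no 2 matches overlapped in these windows. The PU.1 core lay at bases -23 to -17 of Fcgr4, -56 to -50 of Fcgr1 and -7 to -1 of Fcgr3, counted from the start. The interferon-response-like match of Fcgr4 lay at -73 to -65. Fcgr1 also held a GAS-like element (TTCNNNGAA) at -109 to -101, and Fcgr3 a C/EBP-like element (TTGCNNAA) at -28 to -21. Fcgr3 had 2 overlapping entries, of which 1 is shown. Its start, 171059403, lies inside the gene's annotated span, which reaches further upstream, so this window is also within the gene. The windows of Fcgr2b and Fcer1g held none of the 4. Over 32851 promoter windows of 27025 genes, the PU.1 core was found in 12.2%, the interferon-response-like element in 8.06%, the GAS-like element in 7.83% and the C/EBP-like element in 10.4%. A match is a description, not a site or a cause, and no factor's binding was measured.

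The 29 libraries held 1143 to 6328 annotated cells each, 106977 in all, with 819438 to 5855047 counts per library and a median of 321 to 1363 counts per cell. Cell types are the authors' own annotation, at its coarser level. Levels are given as CPM, a gene's summed count in 1 cell type of 1 library scaled to the total count of that type there, for types with at least 20 cells. Fold changes are on the log2 scale from edgeR's quasi-likelihood test on the summed counts, with TMM scaling between libraries and Benjamini-Hochberg adjustment over all genes tested, so a fold change need not equal the ratio of the mean CPM. The labels number the libraries as replicates and each is its own pool of tissue, so p-values measure the spread between pools. In whole-type sums, fewer cells of a state and less RNA per cell cannot be told apart. Of 406 pairs of libraries, 175 shared no cell barcode and the rest at most 7. In 5 of the 12 young brain libraries the median mitochondrial share of counts was under 1%. They were sham replicate 1 and replicates 1 and 2 of each stroke group. Values by class are given for Fcgr1, Fcgr2b, Fcgr4 and Fcer1g in microglia, Fcgr2b and Fcgr3 in monocyte-derived cells and the Fcgr2b to Fcgr3 ratio.

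Most annotated types had the highest level of their own marker list, but border-associated macrophages and blood dendritic cells had more of the monocyte and macrophage list, and the small types Eos.Bas and pre of blood more of the neutrophil list, UC of blood more of the platelet list and MaC of brain more of the T cell list. The library labelled stroke day 2 replicate 3, however, went against its label in the cells annotated as microglia. It held only 58 such cells, and the summed level of 10 microglia markers was 820 CPM there, beside 16420, 16680 and 17080 in the other 3 day 2 libraries and 23150 to 32190 in sham. Gpr34, Olfml3, Sall1 and Sparc were at 0 in it. A list of 9 monocyte markers summed to 4328 CPM, beside 520 to 1123 in the other 3, with Lyz2 at 3443 and Ly6c2 at 385 CPM. The fitted day 2 changes of the members in young microglia are therefore given with and without the library. In the fit with aged mice, which also holds it, this is done for Fcgr4.

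Levels were first compared across the annotated types of young mice. Fcgr1, the high-affinity receptor, was a transcript of brain macrophages. Its median over libraries was 414 CPM in monocyte-derived cells (7.83 to 717 over 12 libraries), 343 in microglia (271 to 702) and 319 in border-associated macrophages (47.3 to 562). It was 107 in brain dendritic cells and 95.1 in blood monocytes (55.0 to 173). Blood neutrophils held 3.3 counts of Fcgr1 in 11402370, a pooled level of 0.292 CPM, close to the 0.263 CPM that 3 counts would give. Fcgr2b, the inhibitory receptor, had its highest median in border-associated macrophages, at 856 CPM (424 to 1468). It followed at 363 in monocyte-derived cells, 349 in microglia (244 to 459) and 249 in blood monocytes (201 to 429.7). Blood B cells held 103 CPM of Fcgr2b (82.0 to 133) and, pooled, 0.168 CPM of Fcgr3 from 1.6 counts, so of these 2 receptors only the inhibitory one was above the level of 3 counts there.

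Fcgr3 was spread over macrophages and granulocytes. Its medians were 999 CPM in microglia (714 to 1818), 972 in blood neutrophils (721 to 1148) and 912 in border-associated macrophages. They were 607 in brain granulocytes, 490.0 in monocyte-derived cells and 392 in blood monocytes (316 to 588). In blood natural killer cells, which are known to carry this receptor, the mean of Fcgr3 was 26.8 ± 40.9 CPM after sham surgery (SD, n = 4). By median over sham and stroke libraries together, Fcgr4 was highest in blood, at 161.4 CPM in neutrophils (98.1 to 261) and 160.9 in monocytes (78.4 to 331). In the brain its median was 119 in monocyte-derived cells, 117 in granulocytes and 80.9 in microglia (11.1 to 259.9). In sham libraries alone, Fcgr4 lay at 42.2 to 478 CPM in monocyte-derived cells of the brain and at 135.9 to 331 in blood monocytes. Fcer1g was abundant in the myeloid types and in natural killer cells. Its medians ran from 2856 CPM in blood monocytes (1984 to 3541) through 2812 in border-associated macrophages, 2754 in monocyte-derived cells, 2466 in microglia and 2279 in blood neutrophils to 2134 in blood natural killer cells. The next step down was from 1016 in the blood type annotated pre (617 to 1354) to 186 in brain T cells. In the order of types, neighbouring ranges overlapped everywhere except at that step of Fcer1g, between blood B cells and pre for Fcgr2b and between blood monocytes and blood dendritic cells for Fcgr3. Brain endothelial cells held 0.0 counts of Fcgr3 in 4044014, which allows up to 0.742 CPM for counting error alone, beside 26.5 CPM of Fcer1g.

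**Figure D1:**
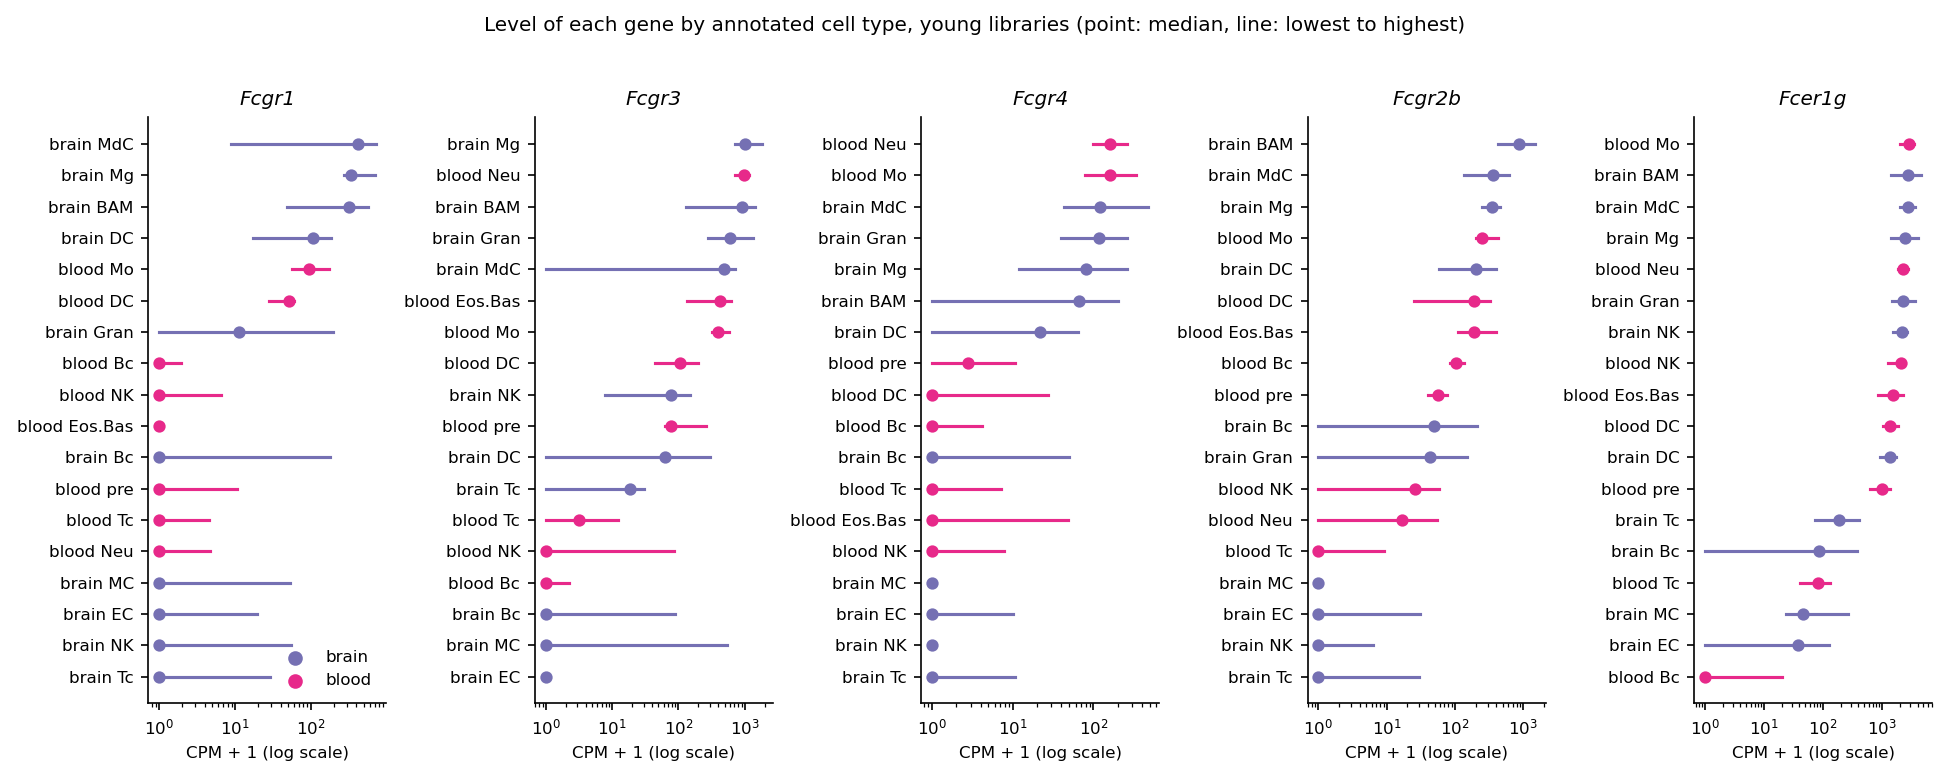
Level of each Fc gamma receptor gene in 18 annotated cell types of young mice, as CPM + 1 on a log scale. Points are medians over libraries and lines run from the lowest to the highest library, with brain types in purple and blood types in pink, and Fcgr2b is highest in border-associated macrophages (median 856 CPM) and Fcgr4 in blood neutrophils and monocytes (161.4 and 160.9 CPM).

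Within the same library, cell types can be ordered without the spread between pools. Fcgr2b was higher in border-associated macrophages than in microglia in 12 of 12 young brain libraries, with a median ratio of 2.40 (1.34 to 4.16). It was lower in monocyte-derived cells than in border-associated macrophages in 12 of 12, with a median ratio of 0.401. Fcgr3 was lower in monocyte-derived cells than in microglia in 12 of 12, at a median ratio of 0.460. The order for Fcgr1 changed with the group: it was higher in monocyte-derived cells than in microglia in 0 of 4 sham libraries (median ratio 0.377), 3 of 4 at day 2 (1.14) and 4 of 4 at day 14 (1.27). The library in doubt is 1 of those 3, with 717 CPM in monocyte-derived cells and 702 in microglia. These orders are descriptions of the annotated types, which were defined from the same transcripts.

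The first comparison asked how the family changed in microglia after stroke. Fcgr4, Fcgr1 and Fcer1g rose at day 2, the same 3 genes and Fcgr2b rose at day 14, and Fcgr3 passed the test at neither time. Fcgr4 moved most. In the 4 sham libraries it lay at 29.9, 18.4, 11.1 and 22.6 CPM. At day 2 it lay at 123, 82.9, 259.9 and 135 CPM, and at day 14 at 81.0, 80.8, 147 and 55.95. Every stroke library was above every sham library, and the highest value, 259.9, came from the library that went against its label. From 20.5 ± 7.86 CPM in sham (SD, n = 4), Fcgr4 rose by 2.79 ± 0.38 (log2, SE) to 150.3 ± 76.4 at day 2 and by 2.62 ± 0.37 to 91.2 ± 39.0 at day 14 (edgeR, adjusted p = 0.000243 and 0.000348). Without the library in doubt the rise at day 2 was 2.67 (adjusted p = 0.000702). It was also present in each class of mitochondrial share: among libraries under 1%, sham was at 29.9, day 2 at 82.9 to 123 and day 14 at 80.8 to 81.0, and among the others sham was at 11.1 to 22.6, day 2 at 135 to 259.9 and day 14 at 55.95 to 147.

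Fcgr1 lay at 334, 298, 271 and 292 CPM in sham microglia and at 449, 368, 702 and 483 at day 2, again with no overlap. It rose by 0.79 ± 0.23 (log2, SE) at day 2 (edgeR, adjusted p = 0.0195) and by 0.73 without the library in doubt (adjusted p = 0.0365). At day 14 it lay at 353, 289, 501 and 323 CPM, so 1 library was within the sham range, and the fitted rise was 0.76 ± 0.22 (adjusted p = 0.0346). Fcer1g, the shared signalling chain, went from 2278, 2037, 1432 and 1448 CPM in sham to 2488, 2455, 4123 and 2953 at day 2 and 2611, 2476, 3391 and 2182 at day 14. All day 2 values were above sham, while the lowest day 14 value was within the sham range. By class of mitochondrial share, Fcgr1 at day 14 was 289 to 353 beside 334 in sham under 1%, and 323 to 501 beside 271 to 298 in the others. Fcer1g under 1% was 2278 in sham, 2455 to 2488 at day 2 and 2476 to 2611 at day 14. In the other class Fcer1g was 1432 to 2037, 2953 to 4123 and 2182 to 3391. The fitted rises were 0.81 ± 0.28 at day 2 (adjusted p = 0.0390) and 1.04 ± 0.28 at day 14 (adjusted p = 0.0241), and the first was 0.74 without the library in doubt (adjusted p = 0.0495). At day 2, leaving out day 2 replicate 4 ended the call of Fcgr1 (0.69, adjusted p = 0.0743). That of Fcer1g ended without sham replicate 3 or 4, day 2 replicate 4 or day 14 replicate 1, at 0.72 to 0.85 (adjusted p = 0.0528 to 0.0998). At day 14 that of Fcgr1 was lost without any 1 sham library, day 2 replicate 1 or day 14 replicate 1 or 3, at 0.53 to 0.80 (adjusted p = 0.0506 to 0.105), and that of Fcer1g without sham replicate 3 or 4 or day 14 replicate 1 or 3, at 0.85 to 1.06 (adjusted p = 0.0538 to 0.0928).

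The inhibitory Fcgr2b lay at 423, 303, 244 and 293 CPM in sham, 408, 353, 346 and 304 at day 2 and 353, 368, 459 and 316 at day 14. The 2 classes of mitochondrial share went opposite ways. Under 1%, sham was at 423 and day 14 at 353 to 368, and in the others sham was at 244 to 303 and day 14 at 316 to 459. The 3 groups overlapped, and the fitted change was 0.30 ± 0.22 at day 2 (edgeR, adjusted p = 0.301; 0.35, adjusted p = 0.223, without the library in doubt) and 0.72 ± 0.21 at day 14 (adjusted p = 0.0380). The call of Fcgr2b was lost without sham replicate 2, 3 or 4, day 2 replicate 4 or day 14 replicate 1, 2 or 3, at 0.56 to 0.76 (adjusted p = 0.0522 to 0.107). The day 14 calls of Fcgr1, Fcgr2b and Fcer1g also depended on the scaling between libraries. With library size alone they came to 0.30, 0.25 and 0.57, with adjusted p = 0.282, 0.341 and 0.112, and the median over all genes went from -0.04 to -0.49 with it. The calls of Fcgr1, Fcgr2b and Fcer1g at day 14 were also lost with no filter on low counts (0.74, 0.69 and 1.01, adjusted p = 0.0825, 0.0914 and 0.0751), with counts rounded up (0.77, 0.70 and 1.01, adjusted p = 0.0715, 0.0858 and 0.152) and with a block for the replicate number (0.72, 0.73 and 1.02, adjusted p = 0.0716, 0.0679 and 0.0572). At day 2 the calls of Fcgr1 and Fcer1g were lost with no filter (0.78 and 0.79, adjusted p = 0.0615 and 0.131) and with counts rounded up (0.58 and 0.45, adjusted p = 0.121 and 0.471), and that of Fcer1g with library size alone (0.75, adjusted p = 0.0521) and with the replicate block (0.82, adjusted p = 0.0829). Fcgr4 was called at both times under every one of these settings. Fcgr3 lay at 1556, 1818, 992 and 1162 CPM in sham, 1005, 958, 988 and 1545 at day 2 and 714, 876, 1335 and 988 at day 14. The groups overlapped, and its fitted changes were -0.16 ± 0.32 and -0.04 ± 0.32 (adjusted p = 0.736 and 0.955), the first -0.04 without the library in doubt (adjusted p = 0.932). No member differed between day 14 and day 2 by edgeR, with DESeq2 calling none and 0 unadjusted p-values under 0.05. Fcgr4 changed by -0.17 ± 0.36 (edgeR, adjusted p = 0.853), or by -0.06 without the library in doubt (adjusted p = 0.952).

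Counted over the family, 3 of 5 members were called higher at day 2 and 0 lower, where 15.7% of the 10145 genes tested were called higher and 15.7% lower. The same 3 had day 2 libraries that were all above sham, as did 11.4% of genes. At day 14, 4 of 5 were higher and 0 lower, where 10.6% of genes were higher and 4.66% lower, and Fcgr4 alone was clear of sham, as were 5.8% of genes. Day 14 against day 2 called 6.93% of genes. The median log2 change of the 5 members was 0.79 at day 2 and 0.76 at day 14, beside -0.05 and -0.04 over all genes. Both contrasts used the same 4 sham libraries. Other transcripts moved in these cells too. The monocyte list summed to 235 to 399.6 CPM in sham microglia, 520 to 4328 at day 2 and 2130 to 3097 at day 14. Most of it was Lyz2 (233 to 376, 520 to 3443 and 2125 to 3035 CPM), and Vcan and F10 of that list were at 0 in all 4 sham and all 4 day 14 libraries. The neutrophil list summed to 176 to 595 in sham, 28.8 to 156 at day 2 and 136 to 227 at day 14. At day 2 its gene Csf3r was at 125, 156, 10.8 and 72.9 CPM. That was most of the sum except in the library in doubt, where Il1r2 was at 14.1. Retnlg and S100a9 were at 0 in all 4 day 2 libraries. The part of these transcripts in the microglia results was not tested.

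**Figure D2:**
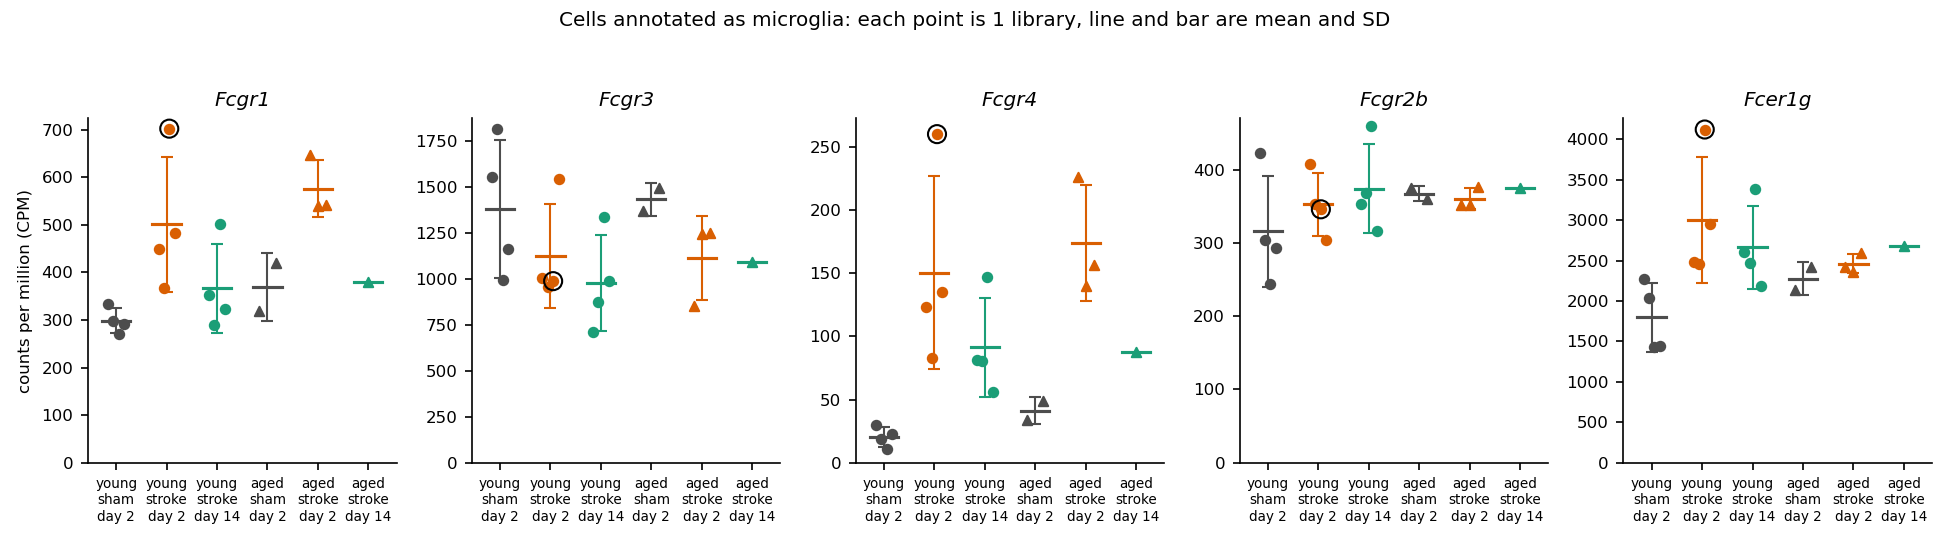
Level of each gene in microglia of every brain library, in CPM, with young mice as circles and aged mice as triangles. The line and bar give the mean and SD of a group, stroke day 2 replicate 3 is ringed in black, and the young stroke libraries of Fcgr4 (55.95 to 259.9 CPM) all lie above the sham libraries (11.1 to 29.9 CPM).

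In aged microglia Fcgr4 was the member that was called. Fcgr4 lay at 49.0 (male) and 33.5 (female) CPM in the 2 aged sham libraries and at 139.7, 226 and 156 in the 3 aged stroke libraries of day 2, with no overlap, as for 16.6% of genes. It rose by 2.21 ± 0.44 (log2, SE; edgeR, adjusted p = 0.0148), and was the 1 member of 5 called higher, where 1.78% of 11096 genes were. The call was lost without either sham library (1.89, adjusted p = 0.206, without the female and 2.41, adjusted p = 0.0614, without the male) and without a female stroke library (1.92, adjusted p = 0.0695). Fcgr1 lay at 420.3 and 319 CPM in aged sham and 540.4, 646 and 542 after stroke, a change of 0.72 ± 0.30 (adjusted p = 0.247). Fcer1g changed by 0.18 (adjusted p = 0.883). Fcgr3 lay at 1496 and 1370 CPM in aged sham and at 1242, 852 and 1248 after stroke. All 3 stroke values were below both sham values, as for 18% of genes, and the change was -0.30 (adjusted p = 0.810). Aged against young sham gave 1.00 ± 0.41 for Fcgr4 (adjusted p = 1), where 0.018% of genes were called. Both aged values were above the highest young sham value of 29.9, as 6.49% of genes were cleanly higher. The stroke effect on Fcgr4 did not differ between ages beyond its error, with an interaction of -0.59 ± 0.53 (adjusted p = 0.832). The library in doubt is among the young stroke libraries of this fit. Without it the interaction was -0.54 (edgeR, adjusted p = 0.823) and the rise in aged microglia 2.21 (adjusted p = 0.0179). edgeR called 0 of 5 members in that interaction, in aged against young sham and in aged against young at day 2, where 0% of all genes were called in the interaction and 0% in aged against young at day 2. DESeq2 called none, and the unadjusted p was under 0.05 only for Fcgr4 between the sham groups. The aged groups mixed males and females, whereas the young were males. The deposited count tables of aged brains also held more genes than those of young brains. In comparisons between the ages, age cannot be told apart from how the tables were made. The part of sex and of the tables in these results was not tested.

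Monocyte-derived cells, which enter the brain from blood, were compared next, and there the high-affinity receptor was the member that edgeR called. Fcgr1 lay at 155, 130.1, 7.83 and 92.8 CPM in sham, 579, 283, 717 and 604 at day 2 and 436, 408, 599 and 419 at day 14. All 8 stroke libraries were above all 4 sham libraries, as were 8.44% of genes at day 2 and 7.62% at day 14. The value of 7.83 rests on 0.32 counts in its library, where 3 counts would be 74.2 CPM. Fcgr1 rose by 2.77 ± 0.50 (log2, SE) from 96.5 ± 64.5 to 546 ± 185 CPM at day 2 (edgeR, adjusted p = 0.00375) and by 2.50 ± 0.50 to 465 ± 89.5 at day 14 (adjusted p = 0.00785). It was 1 of 5 members called higher at each time, where 5.66% and 4.21% of 8080 genes were, and both calls held under every setting run, at 2.33 to 3.21 and 2.06 to 2.92. The sham libraries held 43 to 99 such cells each, beside 1468 to 2180 at day 2 and 489 to 857 at day 14.

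The other members did not pass the test in these cells. Fcer1g lay at 2684, 2955, 2129 and 2032 CPM in sham and at 2823, 2938, 3604 and 3451 at day 2, a change of 0.86 ± 0.29 (edgeR, adjusted p = 0.0904), which DESeq2 called (0.65, adjusted p = 0.0387). Fcgr2b lay at 615, 342, 164 and 136 CPM in sham, at 435, 444, 432 and 444 at day 2 and at 299, 308, 384 and 269.7 at day 14. The 1 sham library with a mitochondrial share under 1%, at 615, was above all stroke libraries. In the other class sham was at 136 to 342 and day 2 at 432 to 444. All 4 day 14 values were below all 4 day 2 values, though the fitted change of -0.51 had an adjusted p of 0.667, and 5.5% of genes were as cleanly lower. Fcgr4 was 281, 478, 92.9 and 42.2 CPM in sham, 132, 106, 203 and 152 at day 2 and 103, 84.9, 141 and 60.4 at day 14, and changed by -0.36 and -0.99 (adjusted p = 0.760 and 0.314). Fcgr3 changed by 0.77 and 0.19 (adjusted p = 0.455 and 0.927). At day 2 Fcgr3 was at 472 to 473.5 CPM in the libraries under 1% mitochondrial share and at 692 to 722 in the others. At day 14 it was at 254 to 273 and at 506.5 to 603. The 5 members had a median change of 0.77 at day 2, beside 0.29 over all genes, and 0.25 at day 14, beside 0.28. Day 14 against day 2 called 0 members by edgeR and by DESeq2, with 0 at an unadjusted p under 0.05, and 1.79% of genes. Neutrophil markers summed to 421 to 3769 CPM in sham, 234 to 463 at day 2 and 101 to 189 at day 14, and microglia markers to 45.9 to 725, 279 to 855 and 371 to 2400. Their part in these results was not tested.

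Blood monocytes, the circulating source of such cells, showed no call. Fcgr1 lay at 82.3, 72.2, 103 and 95.1 CPM in sham, 91.0, 55.0, 104 and 62.8 at day 2 and 173, 125 and 111 at day 14. Day 14 was above both other groups, though the change from sham of 0.62 ± 0.26 had an adjusted p of 0.807, and 3.64% of genes lay as cleanly higher than sham and 5.49% than day 2. The other 4 genes had overlapping groups at day 2, with Fcgr2b at 289 ± 72.4 in sham and 289.9 ± 95.5 at day 2, Fcgr3 at 405 ± 107 and 485 ± 116, Fcgr4 at 192 ± 93.8 and 231 ± 104, and Fcer1g at 3033 ± 634 and 2715 ± 551 CPM (SD, n = 4). edgeR called 0 of 5 members at either time, where 0% of 6706 genes were called at day 2, 0.254% at day 14 and 0.537% between the stroke times. DESeq2 called none, and the unadjusted p was under 0.05 for 0 members at day 2 and for Fcgr1 alone in both contrasts of day 14.

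Set against blood monocytes of mice at the same time, monocyte-derived cells of the brain held more Fcgr1. At day 2 the level was 548 ± 185 CPM in the brain and 78.3 ± 23.3 in blood (SD, n = 4 each), a difference of 3.05 ± 0.34 (log2, SE; edgeR, adjusted p = 6.8e-06). Fcgr2b was also higher, at 441 ± 6.59 against 289.9 ± 95.5 CPM (0.86 ± 0.23, adjusted p = 0.0120), and both were higher in every brain library than in any blood library, as for 11.1% of genes. At day 14 Fcgr1 was at 468 ± 90.0 against 136 ± 32.8 CPM (2.04 ± 0.35, adjusted p = 0.000507), and Fcgr2b differed by 0.69 ± 0.26 (adjusted p = 0.0769; DESeq2 0.73, adjusted p = 0.0255). Of the family, 2 of 5 members were higher at day 2, where 15.5% of 7651 genes were, and 1 of 5 at day 14, where 10.5% were. Fcer1g was at 3219 ± 381 against 2716 ± 552 CPM at day 2 and did not pass the test (0.54 ± 0.24, adjusted p = 0.103), but DESeq2 called it (0.56, adjusted p = 0.0308), which made 3 of 5 members by that tool. Fcgr4 was not among those higher (-0.32, adjusted p = 0.565), nor Fcgr3 (0.58, adjusted p = 0.195). Brain and blood cells came through different preparations, with digestion and sorting only for the brain, and the tissue and the preparation cannot be told apart. Brain granulocytes against blood neutrophils at day 2 gave 0 calls among the 3 members tested by edgeR and DESeq2, with none at an unadjusted p under 0.05, where 9.16% of 1976 genes were called.

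**Figure D3:**
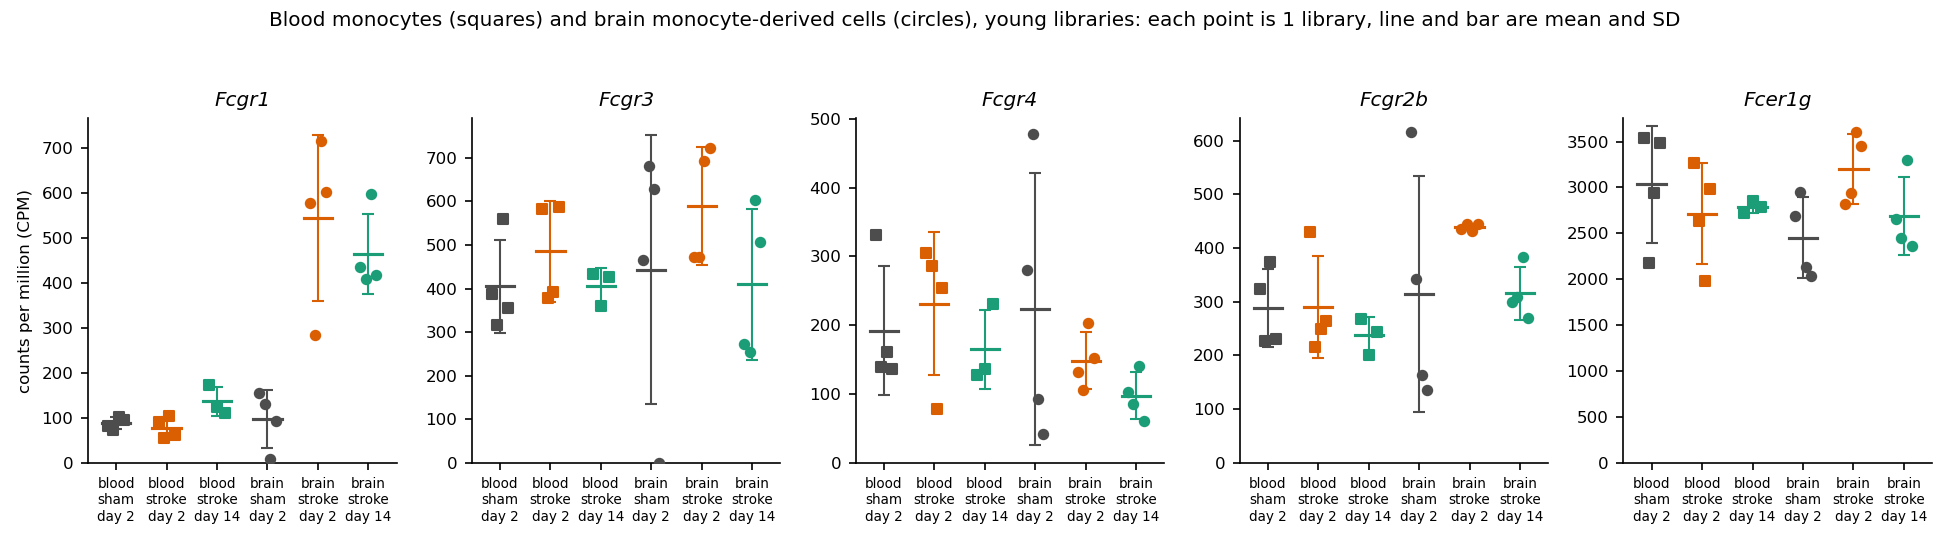
Level of each gene in blood monocytes (squares) and brain monocyte-derived cells (circles) of every young library, in CPM, by group. The line and bar give the mean and SD, and Fcgr1 in the brain cells of stroke mice (283 to 717 CPM) lies above both the brain sham libraries (7.83 to 155 CPM) and blood (55.0 to 173 CPM).

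Border-associated macrophages line the meninges and vessels of the brain. Fcgr1 lay at 259.9, 171, 296 and 47.3 CPM there in sham and at 338, 415, 562 and 426 at day 2, with no overlap, as for 9.9% of the 1313 genes tested. The change of 0.99 ± 0.34 did not pass the test (edgeR, adjusted p = 0.1003). Fcgr2b lay at 1311, 824, 510.5 and 525 CPM in sham, 1000, 1468, 783 and 887 at day 2 and 774, 1074, 1075 and 424 at day 14, and all groups overlapped. None of the 4 members tested was called at day 2 (2.67% of genes called), at day 14 (0.0762%) or between the times (0.838%) by edgeR or DESeq2, and 1 unadjusted p was under 0.05, that of Fcgr1 at day 2. The 4 had a median change of 0.60 at day 2, beside 0.01 over all genes.

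Dendritic cells of the brain were the type in which a member was called lower. Fcgr2b lay at 305, 392, 291 and 164 CPM in sham, 205, 201, 227 and 235 at day 2 and 135, 56.4, 85.7 and 128 at day 14. Every day 14 library was below every sham and day 2 library, as for 2.57% and 4.24% of genes. It fell by 1.53 ± 0.32 on the log2 scale from 288 ± 94.2 to 101 ± 37.0 CPM (SD, n = 4; edgeR, adjusted p = 0.0314), and was 1 of the 4 members tested that was called lower, where 0.504% of 4365 genes were. The call was lost with no filter on low counts (-1.19, adjusted p = 0.138) and on leaving out any of the 4 sham libraries, 2 of the day 2 libraries (replicates 1 and 4) or 2 of the day 14 libraries (replicates 2 and 3), at -1.62 to -1.18 (adjusted p = 0.0539 to 0.165). Fcgr1 went the other way, from 58.7, 34.7, 19.8 and 16.1 CPM in sham to 141, 54.4, 182 and 179 at day 2 and 132, 109, 119.8 and 104 at day 14, with changes of 1.82 ± 0.45 and 1.57 ± 0.45 (adjusted p = 0.0660 and 0.115). Of these groups only day 14 was clear of sham, as 5.66% of genes were. With no filter on low counts Fcgr1 was called at day 2 (2.24, adjusted p = 0.0160). Fcgr3 lay at 175, 299.8, 252 and 0.0 CPM in sham, 25.0, 42.0, 84.4 and 101 at day 2 and 51.6, 58.5, 15.7 and 64.0 at day 14. The sham library at 0.0 made both stroke groups overlap with sham, while the other 3 sham libraries were above every stroke library. Its changes were -1.60 ± 0.68 at day 2 and -1.99 ± 0.68 at day 14 (edgeR, adjusted p = 0.283 and 0.207), and with counts rounded up the second was called (-2.05, adjusted p = 0.0362). At day 2 edgeR and DESeq2 called 0 members, Fcgr1 and Fcgr3 were at an unadjusted p under 0.05, and 1.01% of genes were called. Between day 14 and day 2, where 0.893% of genes were called, edgeR called 0 and DESeq2 called Fcgr2b (-1.08, adjusted p = 0.0337), and the unadjusted p of edgeR was under 0.05 for Fcgr2b and Fcer1g. The authors' finer subtypes of these cells differed in Fcgr2b at day 14, with means of 426 CPM in DC4, 221 in DC3, 84.1 in DC1, 55.9 in DC2 and 20.3 in DC5. Whether the mix of subtypes moved the type's sum was not tested.

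Granulocytes of the brain, blood neutrophils, blood B cells and endothelial cells gave no call of a member by edgeR or DESeq2 at any time, and no unadjusted p under 0.05. In brain granulocytes Fcgr3 was at 581 ± 228 CPM in sham and 818 ± 384 at day 2 (0.37, edgeR, adjusted p = 0.665), where 8.35% of 994 genes were called at day 2, 26.1% at day 14 and 4.23% between the times. In blood neutrophils Fcgr3 was at 971 ± 148 in sham, 931 ± 174 at day 2 and 979.6 ± 94.0 at day 14, and Fcgr4 at 157 ± 22.8, 154 ± 37.8 and 189.6 ± 63.6 CPM, where 0%, 5.99% and 4.69% of 4944 genes were called. Fcgr2b of blood B cells was at 105 ± 20.1, 119.7 ± 16.4 and 95.7 ± 11.5 CPM, where 0%, 0.0114% and 0.0114% of 8762 genes were called. In endothelial cells Fcer1g alone passed the filter, and 13.3%, 0% and 11.2% of 5833 genes were called.

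**Figure D4:**
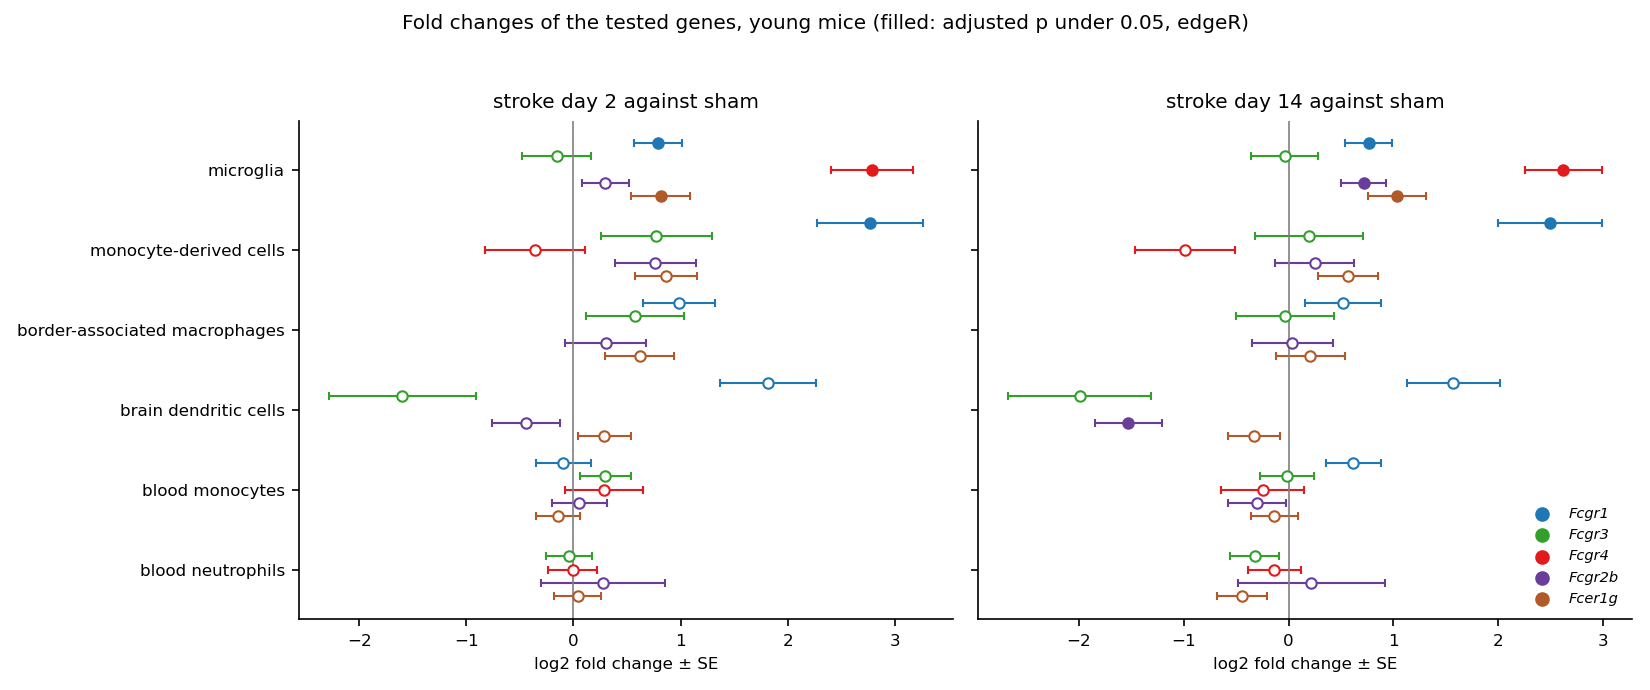
Log2 fold change and SE of each member tested in 6 cell types of young mice, at stroke day 2 and day 14 against the same sham libraries. Filled points have an adjusted p under 0.05 by edgeR, and Fcgr4 in microglia (2.79 and 2.62) and Fcgr1 in monocyte-derived cells (2.77 and 2.50) are the largest of the filled points.

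The balance of inhibitory Fcgr2b to activating Fcgr3 was followed as the ratio of their counts within a library, with a pseudocount of 0.5 counts. It compares libraries and not the levels of the genes. In microglia the ratio was 0.272, 0.167, 0.247 and 0.253 in sham, 0.406, 0.369, 0.362 (the library in doubt) and 0.197 at day 2 and 0.494, 0.420, 0.344 and 0.320 at day 14. All 4 day 14 libraries were above all 4 sham libraries, a difference of 0.75 in log2 (exact permutation test, two-sided p = 0.0286, the smallest that 4 against 4 libraries can give, adjusted p = 0.343 over 12 tests). The day 2 difference was 0.48 (exact p = 0.114, adjusted p = 0.457). None of the 12 tests, in microglia, monocyte-derived cells, border-associated macrophages and blood monocytes, passed adjustment, and 3 blood libraries at day 14 against 4 sham libraries gave -0.29 (exact p = 0.0571, adjusted p = 0.343). Among the stroke libraries the ratio moved with the mitochondrial share: in monocyte-derived cells at day 2 it was 0.920 and 0.941 in the libraries under 1% and 0.625 and 0.615 in the others, and at day 14 it was 1.10 and 1.21 against 0.637 and 0.534. In sham the ratio of these cells was 1.32 in the 1 library under 1% and 0.275 to 5.97 in the others, and in border-associated macrophages 1.44 and 0.703 to 3.51. Both of the highest sham values, from replicate 4, rest on few counts: 5.97 on 2.5 counts of Fcgr2b and 0.0 of Fcgr3 in 43 cells, so that the pseudocount sets it, and 3.51 on 9.7 and 2.4 counts in 52 cells. The day 2 difference in monocyte-derived cells was -0.43 in log2 with that library and 0.42 without it, so its sign rests on 1 library. In microglia it was above sham at day 14 within each class, at 0.420 to 0.494 against 0.272 under 1% and at 0.320 to 0.344 against 0.167 to 0.253 in the others. Fcgr2b and Fcgr3 are close in the sequence of their antibody-binding part, and how the authors' counting treated reads shared by both is not given in the sources used here, so this ratio and the values of both genes are uncertain to that extent.

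**Figure D5:**
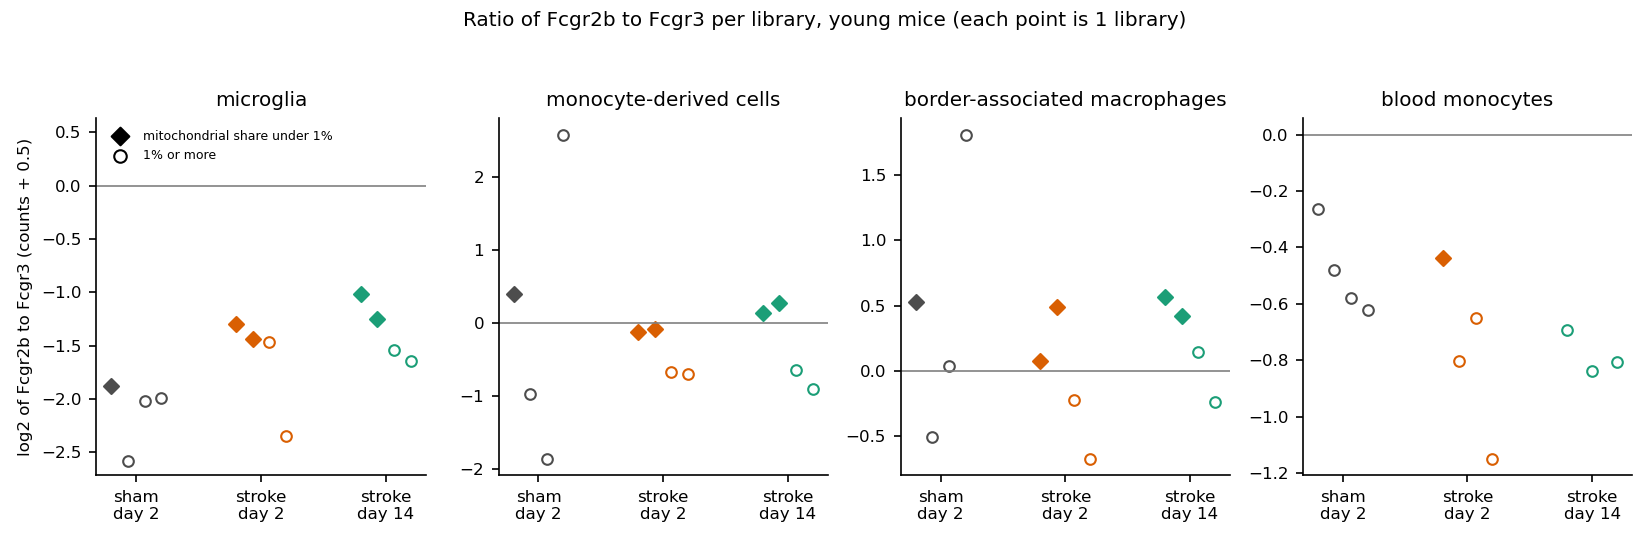
Log2 ratio of Fcgr2b to Fcgr3 counts (each plus 0.5) per library in microglia, monocyte-derived cells, border-associated macrophages and blood monocytes, by group. Filled diamonds are libraries with a mitochondrial share under 1% and open circles the others, and the stroke libraries of monocyte-derived cells under 1% (ratios of 0.920 to 1.21) lie above the others (0.534 to 0.637).

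The authors' finer subtypes were clustered on these same transcripts, so their levels are given as a description. Among the subtypes of blood monocytes, Fcgr4 was highest in Mo3, with a median of 598 CPM over libraries (427 to 924), beside medians of 32.8 to 63.7 in the other monocyte subtypes. In Mo3 it was 542 ± 92.2 in sham, 817 ± 107 at day 2 and 515 ± 53.4 at day 14. Fcgr1 of blood was highest in Mo4 (median 308 CPM, 178 to 388). Mo4 made up 0.519 to 10.7% of the monocytes in sham libraries, 1.88 to 6.43% at day 2 and 12.9 to 17.9% at day 14. In the same order Mo1 made up 9.17 to 39.0%, 1.88 to 26.5% and 34.05 to 48.4%. Mo2 made up 18.3 to 50.75%, 50.9 to 59.15% and 1.51 to 4.71%. Fcgr1 within Mo1 was at means of 95.3, 105 and 105 CPM. Whether the mix of subtypes moved the level of Fcgr1 in all monocytes was not tested. In the brain, Fcgr1 was highest in monocyte-derived subtype MdC4, at 1187 ± 276 CPM at day 2 (807 to 1432) and 852 ± 127 at day 14.

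Subtype MdC3 was present in every group, which lets Fcgr1 be read within it. It made up 67.4 to 91.5% of monocyte-derived cells in sham, 11.8 to 16.6% at day 2 and 8.1 to 20.1% at day 14. The part of this shift in the whole-type rise of Fcgr1 was not tested. Within MdC3, Fcgr1 lay at 82.5, 75.7, 8.68 and 123 CPM in sham, 235 ± 57.5 at day 2 (156 to 291) and 238 ± 43.9 at day 14 (189.5 to 288), with every stroke library above every sham library. The same held for 5.39% of 8056 genes of this subtype at day 2 and 2.68% of 5337 at day 14 (genes with at least 10 counts over the libraries compared). The value of 8.68 is from the sham library whose monocyte-derived cells held 0.32 counts of Fcgr1 in all. Fcgr4 of microglia was likewise read within subtypes. In Mg1 it was 21.2 in sham (8.17 to 36.4), 54.4 at day 2 (23.9 to 112, n = 3) and 36.0 at day 14 (27.4 to 49.1, n = 3), and the groups overlapped. In Mg3, the main subtype of day 14 (59 to 76% of microglia), it was 35.9 and 52.9 in 2 sham libraries, 112 to 368 at day 2 (n = 3) and 63.8 to 171 at day 14. The sham values rest on 1.5 counts in 70 cells. They were below every stroke library, as for 13.6% of 3275 genes at day 2 and 35.2% of 12246 at day 14. In Mg4, which held 34 to 97% of microglia at day 2 (median 38.7%), it was 182 ± 76.7 CPM at day 2. The share of 97% is that of the library in doubt, which is also in this mean.

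By likeness of pattern over 18 cell types (Pearson's r of log2(mean CPM + 10) among 6774 genes, a description over types that share libraries), the gene nearest to Fcgr1 was Aif1 (0.96), then Hmox2 (0.95). Nearest to Fcgr2b were Cnpy3 (0.88), P2rx4 (0.87) and Hexa (0.87), to Fcgr3 Sirpa (0.92), Creg1 (0.91) and Itgam (0.89), and to Fcgr4 Tlr13 (0.95), Slc11a1 (0.95) and Sat1 (0.94). Nearest to Fcer1g were Tyrobp (0.97), which encodes another ITAM adapter, Myo1f (0.92) and Rab8b (0.89). Over the 12 young microglia libraries, among 6512 genes, Fcgr4 was nearest to Capg (0.99), AB124611 (0.98) and Akr1a1 (0.98), and Fcgr1 to Dap (0.98), Hcfc1r1 (0.97) and Sdcbp (0.97). Fcer1g was nearest to Aldoa (0.98), Cd68 (0.97) and Akr1a1 (0.96), Fcgr2b to Tapbp (0.85), Ctsh (0.84) and Atp6ap1 (0.81), and Fcgr3 to Atraid (0.93), Unc50 (0.91) and Zfp706 (0.87). These libraries also differ in depth and in surgery, and the library in doubt is among them.

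The wider pathway was read from 70 genes in 6 lists. In microglia at day 2, 48 of the 70 were tested, 7 were called higher and 13 lower, where 15.7% of all genes were higher and 15.7% lower. Of the 25 tested genes that carry the activating signal, 3 rose and 8 fell, with a median change of -0.53 beside -0.05 over all genes. Rac2, a GTPase of the phagocyte oxidase, rose by 1.32 ± 0.28 (edgeR, adjusted p = 0.00385) and the adapter Lat2 by 1.04 ± 0.20 (adjusted p = 0.00235). The kinase Syk itself fell by 1.26 ± 0.29 on the log2 scale, from 232 ± 44.7 to 81.8 ± 25.0 CPM (adjusted p = 0.00620), the adapter Gab2 fell by 1.85 ± 0.42 (adjusted p = 0.00618) and the phospholipase Plcg1 fell by 1.31 ± 0.41 (adjusted p = 0.0260). Of 8 tested genes of the inhibitory side 2 fell. Inpp5d, the phosphatase that Fcgr2b recruits, went from 319 ± 78.2 to 137 ± 93.4 CPM (adjusted p = 0.0487) and the ubiquitin ligase gene Cbl from 137 ± 31.8 to 55.3 ± 28.7 (adjusted p = 0.0268). Without the library in doubt, 3 of 25 activating genes rose and 9 fell, 2 of 9 on the inhibitory side fell, where 14.5% of 11084 genes were higher and 13.1% lower in that fit, and each gene named here kept its direction and its call (Syk -1.23, adjusted p = 0.0121). Calls were also gained: Fcrls, an Fc receptor-like gene of microglia, was higher (0.62, adjusted p = 0.0314), and so was the immunoglobulin light chain gene Igkc (4.81, adjusted p = 0.0104), which did not pass the filter on low counts with that library included.

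Among the 8 phagocyte effectors 4 rose and 2 fell in microglia at day 2, or 2 and 2 in the fit without the library in doubt. Cybb, the catalytic chain of the phagocyte oxidase, rose by 3.69 ± 0.76 from 3.41 ± 6.22 to 49.2 ± 16.1 CPM (edgeR, adjusted p = 0.00347), and Cd68, a lysosomal glycoprotein of phagocytes, by 1.20 ± 0.27 (adjusted p = 0.00518). Mertk, a receptor for apoptotic cells, fell by 2.04 ± 0.48 on the log2 scale, from 993 ± 249 to 189.7 ± 156 CPM (adjusted p = 0.00697). At day 14, 8 of 48 pathway genes were higher and 1 was lower, where 10.6% of all genes were higher and 4.66% lower. Tyrobp, an ITAM adapter beside Fcer1g, rose by 1.51 ± 0.30 from 2337 ± 390.3 to 4817 ± 784 CPM (adjusted p = 0.00440), the adapter gene Hcst by 1.20 ± 0.30 (adjusted p = 0.0168), Cybb by 4.84 ± 0.74 (adjusted p = 0.000656) and Cd68 by 1.29 ± 0.26 (adjusted p = 0.00560), while the inhibitory adapter gene Dok3 fell by 1.33 ± 0.34 (adjusted p = 0.0194). The day 14 libraries of Hcst (92.6 ± 29.6 CPM) overlapped those of sham (55.3 ± 5.60), whereas those of Tyrobp, Cybb and Cd68 were all higher. Pathway genes were not read with library size alone, under which day 14 calls of members were lost. Between the times 4 genes rose and 0 fell, where 3.47% of all genes were higher and 3.46% lower. Among them were the phosphatase gene Ptpn6 (0.79 ± 0.20, adjusted p = 0.0327), Gab2 (1.57 ± 0.42, adjusted p = 0.0398) and Hcst (1.16 ± 0.32, adjusted p = 0.0443). The libraries of Hcst overlapped here too. Without the library in doubt Gab2 and Hcst lost their calls (1.51 and 1.16, adjusted p = 0.0553 and 0.0633). That library is also in the day 14 fit, where leaving it out kept the calls of Tyrobp, Hcst, Cybb, Cd68 and Dok3 and gave 3 genes lower in place of 1, with Pik3cg and Inpp5d added (-0.89 and -0.80, adjusted p = 0.0434 and 0.0327), where 9.35% of all genes were higher and 5.06% lower.

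In monocyte-derived cells 46 pathway genes were tested. At day 2, 4 were higher and 2 lower, where 5.66% of all genes were higher and 1.05% lower. Cd68 rose by 2.61 ± 0.39 from 225 ± 135 to 1127 ± 155 CPM (edgeR, adjusted p = 0.00115), Tec by 1.94 ± 0.45 (adjusted p = 0.0190), Lat2 by 1.56 ± 0.36 (adjusted p = 0.0196) and Cyba by 1.01 ± 0.29 (adjusted p = 0.0466), while Cybb fell by 1.27 ± 0.32 (adjusted p = 0.0279) and Lcp2 fell by 1.10 ± 0.28 (adjusted p = 0.0287). At day 14, 3 were higher, where 4.21% of all genes were, and 0 lower. These were Tec (2.46 ± 0.45, adjusted p = 0.00395), Cd68 (2.44 ± 0.39, adjusted p = 0.00181) and Ncf1 of the oxidase (1.03 ± 0.25, adjusted p = 0.0245). Of the 46 pathway genes Dok2, an inhibitory adapter gene, was the 1 called between day 2 and day 14. It fell (-2.60 ± 0.41, edgeR, adjusted p = 0.00508), where 1.79% of all genes were called in either direction. Against blood monocytes at day 2, 7 of 47 were higher in the brain cells and 13 lower, where 15.5% of all genes were higher and 13.1% lower. Mertk was at 55.4 ± 62.3 CPM in the brain cells and at 0 in all 4 blood libraries (adjusted p = 0.00249). The adapter gene Blnk was higher by 3.50 ± 0.81 (adjusted p = 0.00402), Lat2 was higher by 2.03 ± 0.27 (adjusted p = 3.16e-05) and Dok2 by 3.27 ± 0.46 (adjusted p = 6.22e-05), whereas Cybb was lower by -1.78 ± 0.25 (adjusted p = 5.52e-05), the immunoglobulin gene Ighm by -1.55 ± 0.37 (adjusted p = 0.00528), the neonatal Fc receptor gene Fcgrt by -1.16 ± 0.26 (adjusted p = 0.00285) and the kinase gene Pik3cd by -1.10 ± 0.30 (adjusted p = 0.0113).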

How the data were processed

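Drop-seq libraries (18 brain, 11 blood) were read as deposited. The authors deposited, per library, a table of expected counts per gene and cell (not whole: 0.009 to 4.47% of non-zero values were whole) and a table with each cell's annotation, its number of genes detected (a whole-number count) and its percent of mitochondrial counts. The submitters' processing notes name Seurat and mm10, and the step that made the counts fractional is not given in the sources used here. No doublets were removed beyond the authors' cells. Counts were summed per library and annotated type (at least 20 cells) and rounded. edgeR 4.0.16 (R 4.3.3; filterByExpr, TMM, quasi-likelihood test, Benjamini-Hochberg adjustment over all genes tested, threshold 0.05) gave the main results. DESeq2 1.42.0, no TMM, no filter, rounding up, at least 50 cells, a replicate block and leaving out each library were alternatives. Ratios were tested by exact permutation over all arrangements of the libraries (numpy 2.4.6). Poisson intervals were taken with scipy 1.17.1. The numbers of libraries and counts limit precision, and intervals and 3-count floors cover counting error only. Both take the deposited values as plain counts, although most were not whole. On simulated microglia counts (9784 genes) the day 2 test recovered 3.06% of genes changed 2-fold and 74.2% of those changed 4-fold, and 2.6% of its calls were false. For monocyte-derived cells (7522 genes) it recovered 2.13% and 23.3%, with 11.5% of calls false (3 genes), and for blood monocytes (6439 genes) 42.9% and 93.9%, with 6.29% false (9 genes), both above the 5% that the threshold aims at. Each simulation was set to change 200 genes, whereas the real day 2 test in microglia called 1588 genes higher and 1594 lower. With fewer changed genes the adjusted threshold is stricter, so the shares recovered need not hold for the real microglia test. All members were named. Pathway genes were named where called and at a mean of at least 20 CPM, up to 4 per direction and comparison by size of change, for microglia, monocyte-derived cells and the latter against blood at day 2 (the genes of other comparisons are not printed), and Inpp5d and Cbl were added after their values were seen. Genes alike were the 3 with the highest r. Of the genes these rules name, 2 are not reported here. The members and lists were chosen with earlier results of these data known.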

Additional observations from a re-analysis of the deposited data

Results flagged for a closer look

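Of 102 sets of 4 libraries looked at, 6 held a value far from the other 3, where chance gives about 1 in 20. Fcgr3 in microglia of stroke day 2 replicate 4 was 1545 CPM (1324 cells), beside 1005 at most in the other 3, and the log2 ratio of Fcgr2b to Fcgr3 was lowest in the same cells, at -2.35, with the next at -1.47. Fcgr1 in monocyte-derived cells of stroke day 14 replicate 3 was 599 CPM, beside 436 at most. Fcgr4 in blood monocytes of sham replicate 1 was 331 CPM, beside 160.9 at most. The last 2 rest on few counts: Fcgr4 in border-associated macrophages of sham replicate 4, at 133 CPM from 2.47 counts in 52 cells, beside 43.5 at most, and Fcgr2b in brain granulocytes of stroke day 2 replicate 2, at 151 CPM from 3.27 counts in 75 cells, beside 51.8 at most.

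The aged stroke day 14 group was 1 library, was used in no comparison and allows no test. Intervals here are exact Poisson 95% intervals of counting error alone. Fcgr4 in its border-associated macrophages was 977 CPM (796 to 1186) from 101.8 counts in 83 cells. The 1 aged sham library with enough such cells had 105 CPM, the aged stroke libraries of day 2 with enough cells had 52.9 and 261, and the young day 14 libraries had 0 to 87.1 CPM. By the authors' subtypes it was 1521 CPM in BAM1 (24 cells) and 521 in BAM3 (27 cells). The list of border macrophage markers summed to 5642 CPM in those cells, beside 13720 in aged sham and 9222 to 15690 in aged stroke at day 2, and the monocyte list to 21830, beside 15560 and 6344 to 12870. The part of this in the value was not tested. Its other values are set beside 1 or 2 aged sham libraries, whose own error the intervals leave out, so they describe single libraries and call no difference. Fcgr3 in its border-associated macrophages was 868 CPM (699 to 1067), beside 569 in that 1 aged sham library, and Fcer1g there was 2856 (2540 to 3199), beside 2538. In its microglia Fcgr4 was 87.2 (72.1 to 105), beside 49.0, and Fcer1g was 2683 (2596 to 2773), beside 2421. Fcgr1 in its monocyte-derived cells was 533 (360.4 to 758), beside 175 at most. Lower than in aged sham were Fcgr3 in its microglia, at 1091 (1036 to 1149) beside 1370 to 1496, Fcgr3 in its 21 granulocytes, at 170.5 (20.4 to 621) beside 677 to 681, and Fcer1g in its T cells, at 42.4 (17.8 to 85.0) beside 107 to 285. Beside the 1 aged sham library with enough cells, Fcgr1 in its border-associated macrophages was lower at 252 (165 to 368) against 432. Its dendritic cells were lower in Fcgr2b, at 119 (53.6 to 227) against 293, Fcgr3, at 72.1 (24.5 to 164) against 281, and Fcer1g, at 934 (727 to 1182) against 1295, and Fcgr4 was at 0.0 there (0.0 to 49.8), also below it.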

How the results depend on the processing

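The number of members called was the same, within 1.5 times, in 563 of 595 values over comparisons and alternatives. Of the single members' log2 changes 2152 kept their status, called or not called, 53 lost a call and 8 gained one. The sign changed in 131 values, spread over 45 of 126 changes, each of which was called under no setting. In microglia the count at day 2 came to 1 member with counts rounded up and with no filter on low counts, and at day 14 to 1 with rounding up, no TMM, no filter and the replicate block. That member was Fcgr4 each time, which held at 2.56 to 2.98 at day 2 and 2.14 to 2.80 at day 14 over all settings run. With DESeq2 the count was 2 in monocyte-derived cells at day 2, 2 in these cells against blood monocytes at day 14 and 1 in dendritic cells between the stroke times. With no filter it was 1 in dendritic cells at day 2 (Fcgr1), 0 in them at day 14 and 1 in brain granulocytes against blood neutrophils, and with rounding up it was 2 in dendritic cells at day 14. Leaving out 1 library gave 1 to 3 members in microglia at day 2, 1 to 4 at day 14, 0 to 1 in aged microglia, 0 to 1 in dendritic cells at day 2 and at day 14, and 1 to 2 in monocyte-derived cells against blood monocytes at day 14. The cause of these shifts was not tested. No TMM moved the median of all genes by over 0.1 in microglia (to -0.22 at day 2 and -0.49 at day 14, where calls went from 1071 higher and 473 lower to 670 and 2755) and in monocyte-derived cells (from 0.29 to -0.13 at day 2, where calls went from 457 higher and 85 lower to 180 and 175). In no cell type did every pair of same-numbered libraries correlate over 0.1 in their deviations from the group means (-0.351 to 0.777). Of the 11 or 12 libraries of each type, 5 to 7 correlated best with their own number. The median correlation was higher for same-numbered pairs (0.023 to 0.1165) than for other pairs (-0.0735 to 0.0145) in each type. The check therefore does not exclude a structure shared by number. The main fits did not take the numbers as pairs, and the replicate block was the alternative. Under the replicate block Fcer1g at day 2 in microglia had an adjusted p of 0.0829, and Fcgr1, Fcgr2b and Fcer1g at day 14 had 0.0716, 0.0679 and 0.0572 by edgeR. A term for the mitochondrial share under or over 1%, chosen after seeing the data, changed no count of members called by over 1.5 times. The planned term for a technical batch was not run, since the deposited cell tables used here name none.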
